A study of Homo sapiens with 6 samples.

Results

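The p53 pathway core examined here comprised 9 genes chosen by name: MDM2, MDM4, CDKN1A, BBC3, BAX, PMAIP1, GADD45A, PPM1D and CCNG1. They were looked up among 16500 names in H3K4me3 peak lists and promoter tables from BE(2)-C cells. This established line of human neuroblastoma carries an amplified MYCN gene. Cells had received control siRNA or WDR5 siRNA-1 for 24 hours, with no other treatment given in the labels. WDR5 presents the H3 tail to the H3K4 methyltransferase complexes, and H3K4me3 is the trimethyl mark at active promoters. Chromatin immunoprecipitation and sequencing gave 1 H3K4me3 library per siRNA, so no value has a replicate error and no test between the siRNAs exists. IgG and input libraries, also 1 of each per siRNA, were not used here.

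p53 is a transcription factor that stabilises after DNA damage or oncogene stress. It switches on genes that arrest the cell cycle, repair DNA or start apoptosis. MDM2, itself a p53 target, ubiquitinates p53 for degradation and so closes a feedback loop, and MDM4 is its relative that masks the p53 activation domain. In neuroblastoma the pathway is known for being intact at diagnosis in most tumours and for MDM2 being a target of N-Myc.

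A peak call meant that a gene was named on a library's list because an H3K4me3 peak lay within 1 kb of its transcription start site (TSS). No height or read number came with a call, and the depth behind it is unknown. A gene listed in both libraries can therefore still differ in level between them. The control list held 13618 distinct names and the WDR5 siRNA list 11870. Of the control names, 86.5% were listed in both libraries and 13.5% with control siRNA only. Of the WDR5 siRNA names, 0.817% were listed with WDR5 siRNA only. WDR5 itself was listed in both. The labelled cell type was checked on 10 neuroblastoma markers, of which 8 were listed in both libraries, while TH and DBH, enzymes of catecholamine synthesis, were listed with control siRNA only. All 6 markers of blood, epithelium or liver were in neither list, as were 39.1% of 20056 RefSeq protein-coding genes. Because most coding genes were listed, these calls are only a weak check of the cell type.

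The promoter sequences of MDM2, BAX, PPM1D and CDKN1A are shown first because they cover the different calls, classes and motifs described below. Each is the 250 bases before a transcript start in RefSeq on GRCh38.p14, 5′ to 3′ on the gene's strand. Capitals mark the canonical E-box CACGTG, the preferred site of MYC-family proteins, or a tandem match to the p53 consensus. MDM2 has 2 promoters, and the sequence before its downstream start, within the first intron, holds the p53 match.
MDM2 first start, chr12:68807922-68808171, plus strand: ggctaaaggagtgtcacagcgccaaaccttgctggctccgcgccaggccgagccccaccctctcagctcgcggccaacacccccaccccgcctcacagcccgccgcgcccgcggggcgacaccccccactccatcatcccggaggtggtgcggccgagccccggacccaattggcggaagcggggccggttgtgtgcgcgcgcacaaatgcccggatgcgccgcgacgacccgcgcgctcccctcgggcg
MDM2 downstream start, chr12:68808767-68809016, plus strand: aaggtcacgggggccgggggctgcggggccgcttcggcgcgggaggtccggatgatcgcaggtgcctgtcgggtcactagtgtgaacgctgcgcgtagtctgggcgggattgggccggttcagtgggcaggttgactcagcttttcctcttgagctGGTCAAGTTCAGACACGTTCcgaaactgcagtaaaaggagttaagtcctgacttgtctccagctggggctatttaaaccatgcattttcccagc
BAX, chr19:48954625-48954874, plus strand: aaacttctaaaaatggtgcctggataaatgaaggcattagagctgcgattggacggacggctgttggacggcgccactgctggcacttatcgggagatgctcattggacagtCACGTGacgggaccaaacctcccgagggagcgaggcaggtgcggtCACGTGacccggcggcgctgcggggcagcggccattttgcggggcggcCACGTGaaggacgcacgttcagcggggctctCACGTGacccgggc
PPM1D, chr17:60599943-60600192, plus strand: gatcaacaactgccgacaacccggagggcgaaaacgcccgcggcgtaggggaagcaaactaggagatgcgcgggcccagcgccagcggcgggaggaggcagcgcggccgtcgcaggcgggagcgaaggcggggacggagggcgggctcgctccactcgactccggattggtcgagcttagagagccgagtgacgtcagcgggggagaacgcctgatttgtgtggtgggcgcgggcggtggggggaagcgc
CDKN1A, chr6:36678464-36678713, plus strand: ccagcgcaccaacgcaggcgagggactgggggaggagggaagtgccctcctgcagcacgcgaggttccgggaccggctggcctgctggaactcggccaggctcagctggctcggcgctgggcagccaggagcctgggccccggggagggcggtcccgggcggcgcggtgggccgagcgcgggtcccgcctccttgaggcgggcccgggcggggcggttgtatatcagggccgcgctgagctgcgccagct

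Of the 9 genes, 8 were listed in both libraries, 1 was in neither list, and none was listed in only 1 library. The 8 were MDM2, MDM4, BBC3, BAX, PMAIP1, GADD45A, PPM1D and CCNG1, each named once per list. CDKN1A was the exception. Against 13.5% of all control names, 0 of these 8 genes lost its call with WDR5 siRNA, but with 8 genes the background itself amounts to about 1 name. Of the promoters of the 9 genes, 6 were in the table of N-Myc-binding promoters, 1 in that of non-binding promoters and 2 in no table. The tables hold 9585 promoters, of which 33.9% were N-Myc-binding, and of the 6762 with a control peak 45.7% were. All 7 core promoters in a table were listed in both libraries, as were 90.9% of all N-Myc-binding and 47.7% of all non-binding promoters. The sources used here do not say how the authors decided N-Myc binding.

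The negative regulators MDM2 and MDM4 were alike in call and class. MDM2 had a peak with control siRNA and with WDR5 siRNA, and its promoter (hg19 chromosome 12, TSS at 69201971) was N-Myc-binding. MDM4 also had a peak in both libraries, and its promoter (hg19 chromosome 1, TSS at 204485507) was N-Myc-binding. The tables gave MDM2 1 promoter, whereas RefSeq has transcript starts at 68808172 and 845 bases downstream of it on GRCh38.p14. A peak within 1 kb of either start could give the call, so the lists do not tell the MDM2 promoters apart. The constitutive first promoter and the p53-responsive downstream promoter are both shown above.

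PPM1D, the phosphatase WIP1 that dephosphorylates p53 and its upstream kinases, was the only core gene with an N-Myc-non-binding promoter (hg19 chromosome 17, TSS at 58677544). It had a peak in both libraries. Among non-binding promoters with a control peak, 17.9% were listed with control siRNA only, and among N-Myc-binding ones 4.18%. Control calls missing with WDR5 siRNA were thus more frequent in the class of PPM1D than in that of the other core promoters.

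The apoptosis genes BBC3, BAX and PMAIP1 were each listed with control siRNA and with WDR5 siRNA. BBC3 encodes PUMA and PMAIP1 encodes NOXA, BH3-only proteins that neutralise anti-apoptotic BCL2 proteins, and BAX forms the pore in the outer mitochondrial membrane. The promoters of BBC3 (hg19 chromosome 19, TSS at 47734451) and BAX (hg19 chromosome 19, TSS at 49458117) were N-Myc-binding. PMAIP1 was in neither promoter table and so has no class here, as was the case for 49.2% of the names listed in both libraries.

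The cell cycle genes were split by CDKN1A. GADD45A encodes a stress sensor that acts in growth arrest and repair. Its promoter (hg19 chromosome 1, TSS at 68150860) was N-Myc-binding and it had a peak in both libraries. CCNG1 encodes cyclin G1, which recruits a phosphatase to MDM2. Its promoter (hg19 chromosome 5, TSS at 162864577) was N-Myc-binding and it too had a peak in both.

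CDKN1A encodes p21, the cyclin-dependent kinase inhibitor that carries out the p53-dependent G1 arrest. It was on neither list used here and in neither promoter table, under its symbol or an unambiguous RefSeq synonym. This alone does not set it apart, since 39.1% of 20056 RefSeq protein-coding genes were in neither peak list. A missing peak and a gene that the authors' annotation left out or named otherwise cannot be told apart. The surrounding names were listed. In RefSeq order CDKN1A lies between SRSF3 and CPNE5, with RAB44, which was also in neither list, beside it. SRSF3 held row 11104 and CPNE5 row 11105 of the control list, and both were also adjacent on the WDR5 siRNA list, at rows 9688 and 9689. Of the other 2 inhibitors of the same family, chosen for comparison after their calls were seen, CDKN1B was listed in both libraries and CDKN1C with control siRNA only. The 3 family members thus had 3 different calls.

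The names around each gene showed whether a call was shared with its surroundings. The control list follows the genome, with 3553 of 3557 consecutive pairs on a chromosome rising in position. For the 5 listed names on either side of the 8 listed genes, 67 of 80 were listed in both libraries (83.8%), near the 86.5% of all control names. Around MDM2, GADD45A, PMAIP1 and PPM1D, 10 of 10 surrounding names were listed in both. Around BAX only 5 of 10 were, and the names DHDH, NUCB1, HSD17B14, LHB and LOC101059948 were listed with control siRNA only. DHDH and NUCB1 directly preceded BAX, and FTL, GYS1 and RUVBL2, which directly followed it, were listed in both. Around MDM4 the control-only names were PLEKHA6, GOLT1A and CNTN2. Around CCNG1, where 7 of 10 names were listed in both, they included the GABA receptor subunit gene GABRB2 and the gene WWC1, and around BBC3 they were NPAS1 and CCDC9. BAX, MDM4, CCNG1 and BBC3 were therefore listed in both libraries with control-only names among the 5 on either side. Directly beside MDM4, PPP1R15B and LRRN2 were listed in both. As the share over all 80 names was near the background, this is not a trait of these genes.

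**Figure D1:**
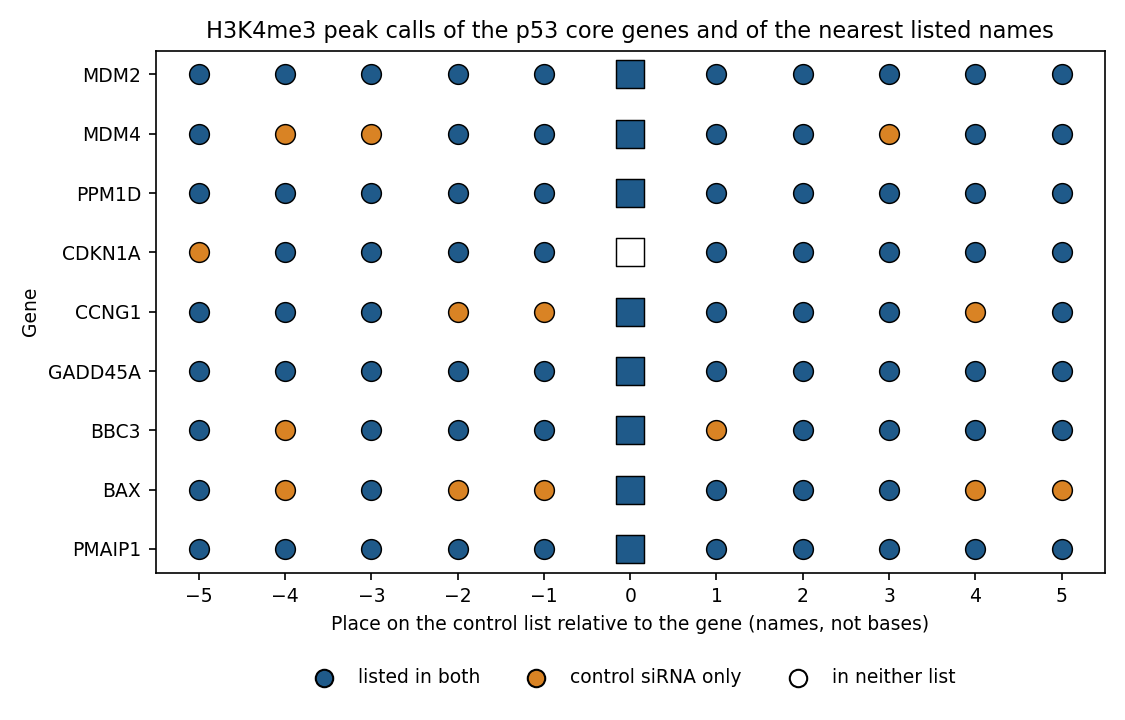
Each line is a core gene (square) with the 5 names before and after it on the control H3K4me3 peak list (circles), by order on the list and not by distance. Blue marks names listed in both libraries, orange names listed with control siRNA only and white a gene in neither list, with CDKN1A placed between SRSF3 and CPNE5. BAX has 5 orange neighbours, and MDM2, GADD45A, PMAIP1 and PPM1D have none.

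No core promoter shared its 1 kb surroundings with another promoter of the tables. The nearest other listed TSS was that of FTL, 10449 bp from the TSS of BAX. For CCNG1 it was NUDCD2 at 22566 bp, for MDM2 SLC35E3 at 62035 bp and for PPM1D APPBP2 at 73964 bp. BBC3 (SAE1, 100371 bp), MDM4 (PPP1R15B, 104563 bp) and GADD45A (GNG12, 148295 bp) lay farther from theirs. A call at these 7 genes was therefore not shared with a neighbour in the tables through a common peak window. Promoters outside the tables were not covered by this comparison.

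The rows of the promoter tables are ordered, and the order is not explained by the file headers. Peak calls moved with it: in the N-Myc-binding table of 3254 rows the first and the third quartile of promoters listed in both libraries lay at 22.7% and 68.3% of the table length, and the median control-only promoter at 90.3%. All 6 N-Myc-binding core genes lay between these quartiles. BBC3 came first at row 990 (30.4%) and was followed by MDM2 at row 1201 (36.9%) and GADD45A at row 1355 (41.6%). MDM4 held row 1773 (54.5%), BAX row 2003 (61.6%) and CCNG1 row 2016 (62.0%). Their median position was 48.1%, close to the 45.6% of all N-Myc-binding promoters listed in both. MYCN held row 1. The promoters next to MDM2 with the same calls were those of HHEX (row 1200) and PMM1 (row 1202).

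PPM1D was the only core gene in the non-binding table, so its position cannot be compared with those of the other core genes. PPM1D held row 207 of 6331 in that table (3.27%), ahead of the first quartile of non-binding promoters listed in both (11.9%, median 23.9%). Control-only promoters of that table had a median of 51.5%. What the row order measures is not known, so these positions are not levels.

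**Figure D2:**
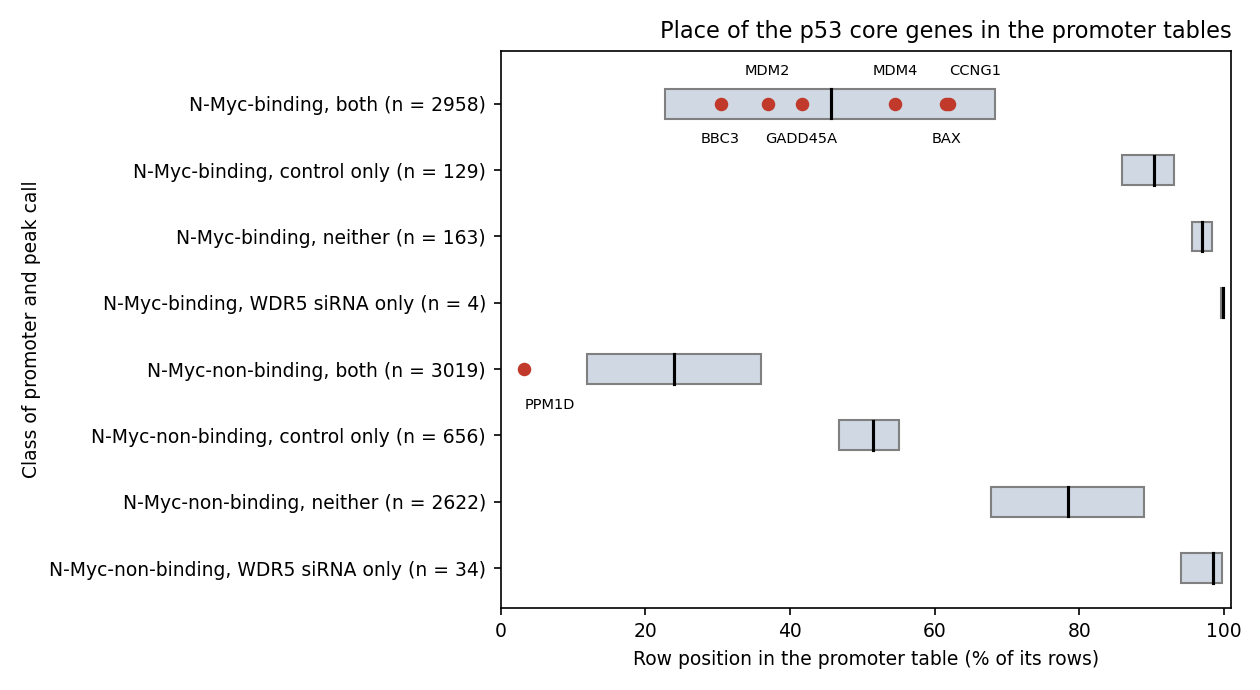
Row position in the promoter tables, as a percentage of the table's rows, for all promoters by class and peak call (bars from the first to the third quartile, black line at the median) and for the core genes (red points). The 6 N-Myc-binding core genes lie from 30.4% to 62.0%, inside the quartiles of promoters listed in both, and PPM1D lies at 3.27% of its table, before the first quartile.

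Motifs were counted in RefSeq promoter windows of 300 bases, from 250 before to 50 after a transcript start, for 8 of the 9 genes. GADD45A had no window. Builds differ between the windows (GRCh38.p14) and the tables (hg19), so a window may belong to another start than the listed TSS. The BBC3 window has its transcript start at 47232667, and the listed hg19 TSS is 47734451. Taking the shift between builds seen at BAX, on the same chromosome, these starts lie more than 1 kb apart. The BBC3 window is then not that of the listed promoter. The palindrome CACGTG was searched, and it lay in 7.26% of all 35114 windows, in 13.9% of windows of N-Myc-binding genes and in 5.88% of those of non-binding genes. Windows of 1 gene can overlap. BAX held 4 copies, at positions -138, -93, -45 and -14 (first base, with the transcript start at 0). Of all windows 5 held 4 or more copies (0.0142%), that of BAX among them, and 3 of these were windows of N-Myc-binding genes (0.0814% of that class). The limit of 4 copies was set by the count at BAX. BBC3 held 1 copy, at position -232. MDM2, MDM4, CCNG1, PPM1D, PMAIP1 and CDKN1A held none in these windows.

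Of the N-Myc-binding core genes with a window, 2 of 5 thus held CACGTG and 3 did not. The copy of BBC3 lay in a window away from its listed N-Myc-binding promoter, whose own sequence was not searched. The looser motif CANNTG, which includes CACGTG and reads the same on both strands, lay in 68.7% of all windows and in those of 5 of the 8 genes. At MDM2 its copies were CAATTG and CAAATG before the first start and CAGGTG and CAGCTG near the downstream start. MDM4, CCNG1 and PMAIP1 held no CANNTG. The 8 genes had 12 windows, and a gene was counted if any of its windows matched. Counts of genes and shares of windows are therefore in unlike units, also for CACGTG and the p53 consensus.

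The p53 consensus was searched as a pair of 10-base units 0 to 13 bases apart, each with up to 1 mismatch and with its central C and G kept. The search was chosen knowing the MDM2 site. It matched 1.84% of all windows. Among the core genes only MDM2 had a match, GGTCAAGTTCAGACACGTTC, which spans positions -94 to -75 from the downstream start and is in capitals above. CDKN1A, BAX, BBC3, PMAIP1, PPM1D, CCNG1 and MDM4 had none within these windows, and p53 sites of many targets lie farther from the start or in introns.

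**Figure D3:**
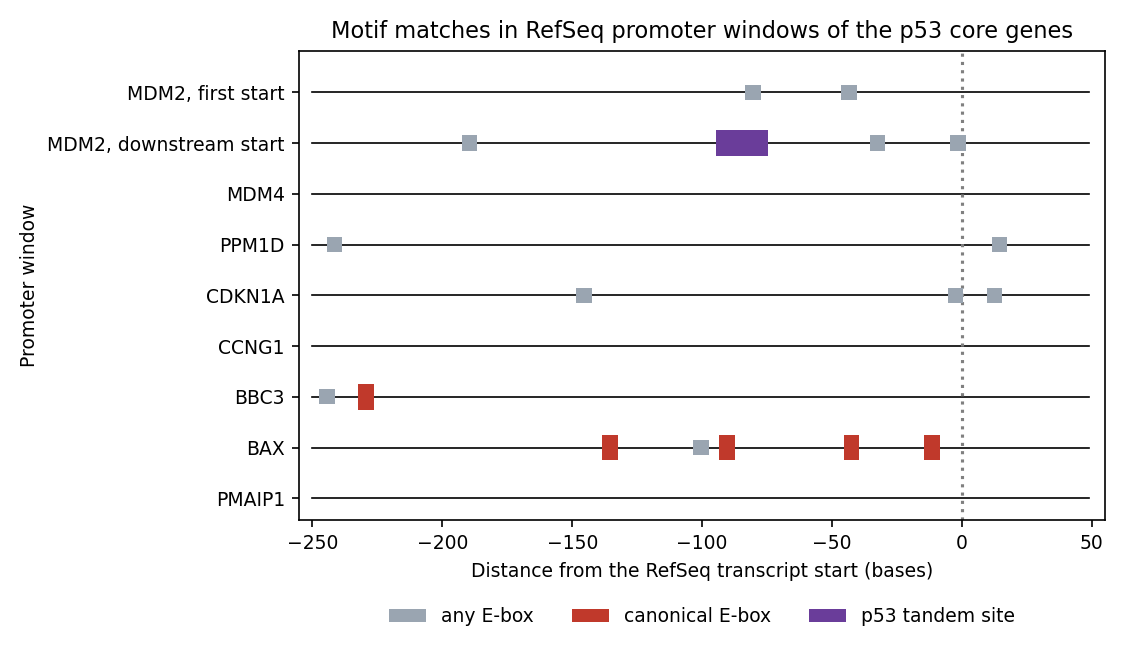
Matches to any E-box (grey), to the canonical E-box (red) and to the p53 tandem consensus (purple) by distance in bases from the RefSeq transcript start, with 1 line per promoter window. BAX has 4 canonical E-boxes and BBC3 has 1, in a window away from its listed TSS. The p53 match lies before the downstream MDM2 start.

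Base composition also varied among the genes. In windows of genes listed in both libraries the median GC share was 65.7% and the median CpG ratio (observed over expected CpG) was 0.84, and in windows of genes in neither list they were 52.0% and 0.31. The first MDM2 window had a GC share of 74.7% and a CpG ratio of 0.94, PPM1D 71.0% and 1.07, PMAIP1 71.3% and 1.11 and BAX 67.3% and 1.15. The downstream MDM2 window had a GC share of 59.7% and a CpG ratio of 0.82. MDM4 (52.7% and 0.70) and the CCNG1 windows (56.0% and 0.89, and 58.3% and 0.98) lay below the first quartile of listed genes in GC share (58.7%) but not in CpG ratio (0.68). The BBC3 window lay below it on both measures, at 48.0% and 0.31. By the shift between builds seen at BAX, that window lies away from the listed N-Myc-binding BBC3 promoter. The base composition of the listed BBC3 promoter was not measured, so these values do not describe it. CDKN1A, although in neither list, had a GC share of 74.3% and a CpG ratio of 0.72. Both values lay above the third quartile of windows of unlisted genes (62.7% and 0.67).

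The rest of the pathway was described with 61 further genes. Of these 53 were listed in both libraries, 4 with control siRNA only, none with WDR5 siRNA only and 4 in neither list. Of the 57 with a control peak, 7.02% were control-only, against 13.5% of all control names. Among genes with a control peak, 0 of 22 family members and regulators and 4 of 35 other targets were control-only. The listed totals were 23 and 38. The share of the targets (11.4%) was near the 13.5% of all control names. At these small numbers the counts do not set the roles apart, and the difference was not tested.

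All 22 family members and regulators with a control peak were also listed with WDR5 siRNA. TP73, a p53 relative with a role in neuronal development, was listed in both, and TP63, the epithelial relative, was in neither list. The kinases ATM, ATR, CHEK1 and CHEK2, which signal DNA damage to p53, were listed in both. Of the acetylases and binding partners, CREBBP, EP300, KAT5 and PPP1R13B were. Among genes that control p53 or MDM2 through ubiquitin, CDKN2A, whose ARF product sequesters MDM2, DAXX, MTBP and RCHY1 were listed in both, as were RPL5 and RPL11, ribosomal proteins that bind MDM2.

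Among the 38 other targets, 31 were listed in both. The control-only ones were RPRM, a mediator of G2 arrest, PERP, a membrane protein of apoptosis and desmosomes, PIDD, a death-domain adaptor, and SPATA18, which acts in mitochondrial quality control. RPRM and PERP had non-binding promoters, at 51.8% and 56.0% of their table, and PIDD and SPATA18 were in no table. TP53AIP1, THBS1 and EDA2R were in neither list. Arrest targets such as BTG2, PLK2, PLK3 and SESN1 and apoptosis targets such as AEN, APAF1, BID and EI24 were listed in both. So were the DNA repair genes DDB2, FANCC, POLH and RRM2B and, among the remaining targets, C12orf5 (TIGAR), CCNG2, FBXW7 and FDXR.

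The calls of the further genes were also counted by N-Myc class. Of the 42 further genes in the promoter tables, 23 were N-Myc-binding, and the share over all promoters in the tables was 33.9%. Among all promoters with a control peak the share was 45.7%, and of the 39 further genes with one, 22 were N-Myc-binding. All 22 were listed in both libraries, and EDA2R, the remaining N-Myc-binding gene, was in neither list. Of the 19 non-binding genes, 15 were listed in both, RPRM and PERP with control siRNA only, and TP63 and THBS1 in neither list. No core gene was control-only in either class. Among the further genes, control-only ones numbered 0 of 22 N-Myc-binding promoters with a control peak and 2 of 17 non-binding ones. The background shares were 4.18% and 17.9%, so at these numbers about 1 and 3 genes would be at the background, and the classes were not compared by a test. H3K4me3 level could not be matched between the classes.

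**Figure D4:**
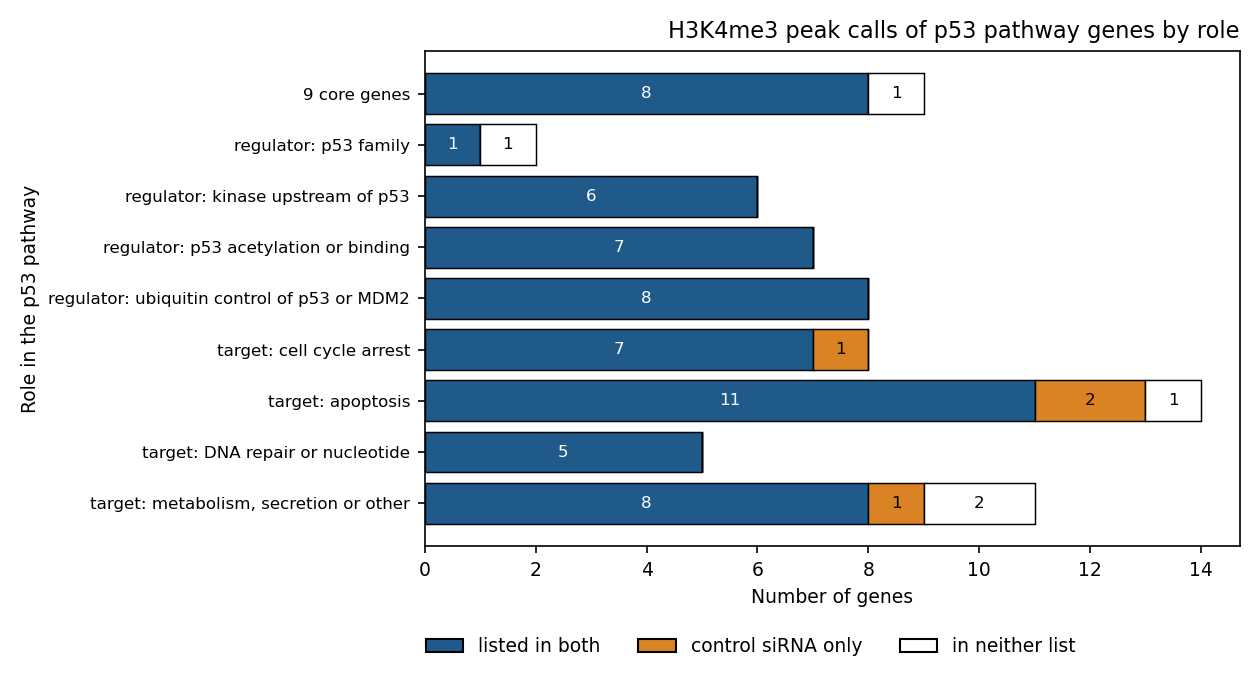
Number of genes (horizontal axis) by peak call for the 9 core genes and for 61 further p53 pathway genes grouped by role. The 4 control-only genes (orange) are all targets, and regulators have none. They are 11.4% of the targets with a control peak, near the 13.5% of all control names.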

How the data were processed

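H3K4me3 chromatin immunoprecipitation and sequencing was done in BE(2)-C cells, with 1 library per siRNA. The build was hg19 and BWA 0.7.12 and bedtools were used, per the submitters' processing notes. The peak caller, its threshold and its control library are not given in these sources. The 3 deposited files hold gene names and 1 bp TSS intervals with no measured unit, so depth and precision are unknown. Columns were assigned to siRNA groups by their headers.

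Names were matched by symbol, listed alias or unambiguous RefSeq synonym (GRCh38.p14, names and promoter windows only). Calls were classed as both, control only, WDR5 siRNA only or neither. As TSS, the end of each 1 bp interval was used. Motifs were counted on both strands, and the functions were tested on simulated data. The core genes, the pathway lists and the tests were chosen with earlier results of these data known. Named genes were all core genes and every listed pathway gene with a call in 1 library or none, with up to 4 examples listed in both per role, plus names beside core genes on the lists, RPL5, RPL11, CDKN1B and CDKN1C, chosen after their calls were seen. Some genes are not reported here, and the pathway counts leave out 2 of them. Alternatives covered name matching, backgrounds, list members, row denominators and motifs. Python 3.11.15, numpy 2.4.6, scipy 1.17.1 and matplotlib 3.10.9 were used.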

Additional observations from a re-analysis of the deposited data

How the results depend on the processing

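No paired analysis was possible because each siRNA has 1 H3K4me3 library, and no replicate could be left out. With exact symbols only, 8 core genes and 52 of the 61 further pathway genes (53 with aliases) were listed in both libraries. Leaving out the 4 further genes with another TSS of the tables within 1 kb left 49 of 57 in both and the 4 control-only genes. The control-only share of all names (13.5%) was 13.6% for names listed once, and leaving out accession-style, LOC and numeric names lowered it slightly. Both settings keep a subset of the same names, so their closeness to the share of all names is partly built in. By class the control-only share was 4.18% for N-Myc-binding and 17.9% for non-binding promoters. The median row of the 6 N-Myc-binding core genes was 50.6% when ranked among promoters with a control peak. CANNTG in place of CACGTG raised the genes with a match from 2 to 5, since it includes CACGTG, and bases before the start alone left CACGTG at 2. A stricter peak threshold could not be tried, as calls carry no value. An unlisted name is a missing call at unknown depth, not absence of H3K4me3.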
